A study of Mus musculus with 17 samples.

Results

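The genes described here encode the proteins of the cytosolic ribosome. Members were the rows whose symbol begins with Rps or Rpl followed by a digit, without pseudogene rows marked -ps and without the S6 kinase genes (Rps6k), at a mean of at least 10 raw CPM, a gene's counts scaled to a common library total, over the libraries of a table. This gave 81 members in splenic B cells and 78 in bone marrow-derived dendritic cells (BMDC), of 90 rows with such a name and 55491 rows in each table. All 78 BMDC members were also members in B cells. Just inside the minimum stood Rps19bp1, at 10.7 CPM in B cells. Just outside it stood Rpl6l, at 9.12 CPM in B cells, and Rps27rt, at 8.68 CPM in BMDC. The pattern misses genes such as Rplp0, Rplp1, Rplp2, Rpsa and Fau, whose names differ, and these are given below within a separate list. It also takes in Rps19bp1, which binds a ribosomal protein but is not one, and the pseudogene-type rows Rps3a2 and Rpl37rt. Rpl7l1, a paralog of Rpl7, is a member by its name, and these data do not show whether its protein is part of the ribosome.

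Mouse cells were incubated with MSA2 plus IPI-549, with MSA2 alone, or without drug (Control). MSA2 is a small-molecule agonist of the innate immune adaptor STING, and IPI-549 is an inhibitor of the phosphoinositide kinase PI3Kγ. B cells had 3 libraries in each of these groups, and BMDC had 2 with the combination, 3 with MSA2 and 3 Controls. The tissue is given as spleen for B cells and bone marrow for BMDC, and no sort or purification is described. The genotype label reads WT for all, whereas the series text names KPC mice, a pancreatic cancer model. No dose, no incubation time and no separate mice per replicate are stated, so p-values measure the spread between these libraries, and no library had IPI-549 alone. The 12 B cell markers summed to at least 8607 CPM in B cells with the combination and in Controls, and to at most 49.9 CPM in BMDC. In BMDC the 15 monocyte and macrophage markers summed to between 16920 and 23580 CPM, above the 13 dendritic cell markers at 6531 to 8025 CPM. The same 13 dendritic cell markers summed to 7431 to 7814 CPM in B cell Controls, so this sum does not set BMDC apart from B cells. The BMDC libraries held 34760025 to 73166643 counts each, and the B cell libraries 41093440 to 51433008.

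A ribosome joins a small subunit, whose proteins are encoded by Rps genes, and a large subunit, whose proteins are encoded by Rpl genes, on a core of ribosomal RNA. The subunits need their proteins in matched amounts, and the mRNAs for them are among the most abundant in a growing cell. These mRNAs are known for a terminal oligopyrimidine (TOP) motif, a C followed by a run of C and T at the very start of the transcript, through which the kinase complex mTORC1 and the RNA-binding protein LARP1 set their translation and stability. Several ribosomal proteins have paralogs (related genes) or copies made by retrotransposition, and short reads cannot always tell these apart.

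The start sites of 8 members are shown because members moved together and this class of mRNA is known for the motif. Of the 81 members, 61 had an entry in RefSeq's promoter table (GRCm38.p6), with 72 listed starts. A run of at least 5 consecutive C or T on the gene's strand that included the annotated start was present in 20 of the 61 (32.8%), against 11.8% of all 27025 symbols in the table. A run of at least 6 within 15 bases on either side of the start was present in 37 of the 61 (60.7%), against 32.7% of all symbols. Each window below runs from 15 bases before the annotated start to the 15th base of the transcript, and capitals mark the run that includes the start where it has at least 5 bases. Rps27, Rps27rt and Rps24 carry such a run, and Rps7, Rpl13a, Rpl9, Rpl7l1 and Rps27l do not at the start shown. Where a gene had several listed starts, the window of the start with the longest such run is shown. Rps24 and Rps27l had 2 listed starts each. The shares above likewise take the longest run over all listed starts of a symbol. In Rpl13a a pyrimidine stretch lies just downstream of the listed start.
Rps27 start site, chr3:90213634-90213663, minus strand: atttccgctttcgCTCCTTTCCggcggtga
Rps27rt start site, chr9:114982725-114982754, minus strand: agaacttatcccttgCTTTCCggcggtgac
Rps24 start site, chr14:24490663-24490692, plus strand: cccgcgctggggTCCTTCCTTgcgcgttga
Rps7 start site, chr12:28635939-28635968, minus strand: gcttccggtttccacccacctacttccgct
Rpl13a start site, chr7:45128731-45128760, minus strand: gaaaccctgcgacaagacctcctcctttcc
Rpl9 start site, chr5:65391417-65391446, minus strand: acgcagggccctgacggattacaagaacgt
Rpl7l1 start site, chr17:46782642-46782671, minus strand: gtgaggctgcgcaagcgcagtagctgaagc
Rps27l start site, chr9:66946071-66946100, plus strand: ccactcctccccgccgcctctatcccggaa

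The coding sequences of the Rps27 trio are shown because several results turn on which of these genes a read can be given to. Rps27 encodes a zinc-finger protein of the small subunit, Rps27l is its intron-containing paralog, known as a p53 target in human cells, and Rps27rt is a single-exon copy. In GENCODE M21 (GRCm38) the coding sequences, each 255 bases with the stop codon, were identical between Rps27 and Rps27rt. For Rps27l the annotated form of the same length as Rps27 was taken. Its longest annotated coding sequence has 315 bases without the stop codon. Rps27l differed from Rps27 at 61 positions (76.1% identity), which are in capitals in its sequence and spread along the whole length. Reads from the coding region therefore separate Rps27l from Rps27 but not Rps27rt from Rps27.
Rps27 coding sequence, chr3:90212725-90213615, minus strand: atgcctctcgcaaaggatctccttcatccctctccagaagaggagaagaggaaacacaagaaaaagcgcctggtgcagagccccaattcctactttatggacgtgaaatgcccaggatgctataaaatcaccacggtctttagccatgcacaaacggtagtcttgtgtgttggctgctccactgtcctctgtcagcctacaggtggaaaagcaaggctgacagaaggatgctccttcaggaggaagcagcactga
Rps27rt coding sequence, chr9:114982453-114982707, minus strand: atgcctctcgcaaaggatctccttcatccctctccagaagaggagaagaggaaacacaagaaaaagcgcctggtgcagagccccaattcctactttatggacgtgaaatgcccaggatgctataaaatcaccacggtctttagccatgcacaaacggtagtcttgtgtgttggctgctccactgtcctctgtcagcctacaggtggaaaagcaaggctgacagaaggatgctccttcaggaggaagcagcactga
Rps27l coding sequence, chr9:66946175-66949357, plus strand: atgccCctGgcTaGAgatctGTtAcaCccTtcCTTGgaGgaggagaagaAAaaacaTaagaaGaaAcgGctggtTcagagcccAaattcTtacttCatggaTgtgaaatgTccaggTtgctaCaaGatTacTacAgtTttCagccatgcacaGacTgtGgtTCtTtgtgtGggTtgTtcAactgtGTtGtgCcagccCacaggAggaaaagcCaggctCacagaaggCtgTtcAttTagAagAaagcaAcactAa

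In untreated cells ribosomal protein mRNAs made up a much larger share of counts in B cells than in BMDC. The members took 3.96%, 4.13% and 3.65% of all counts in BMDC Controls, against 10.96%, 10.80% and 10.50% in B cell Controls. Of the 78 members in both tables, 74 were lower and 3 were higher in untreated BMDC than in untreated B cells (edgeR's quasi-likelihood test, Benjamini-Hochberg adjusted p under 0.05 over all 17740 genes). Of all genes tested, 79.9% were called in this comparison, 40.6% lower and 39.3% higher. The median log2 fold change of the members was -1.31, against -0.07 for all genes. The cell types come from separate tables whose library names have different number prefixes, and cell type and whatever the prefix stands for cannot be told apart.

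The small subunit gene Rps27 had the lowest fold change of the family. It had 211, 225 and 199 CPM (scaled by trimmed mean of M-values, TMM) in BMDC Controls, against 2452, 2058 and 1840 CPM in B cell Controls. The difference was -3.22 ± 0.16 on the log2 scale (SE, edgeR adjusted p = 2.26e-12). Its paralog Rps27l went the other way. It had 130.7, 157.6 and 135.8 CPM in BMDC Controls, against 35.1, 34.5 and 31.6 CPM in B cell Controls. The difference was 2.17 ± 0.10 on the log2 scale (SE, edgeR adjusted p = 8.27e-13). Neither gene's groups overlapped. Counted against each other, Rps27l had 66.8 ± 4.36 reads per 100 of Rps27 in untreated BMDC and 1.61 ± 0.155 in untreated B cells (SD, n = 3 each), with no correction for length.

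Other pairs of paralogs were closer. Rpl36al, a relative of the large subunit gene Rpl36a, had 79.3 ± 1.48 reads per 100 of Rpl36a in untreated BMDC and 41.1 ± 1.28 in untreated B cells (SD, n = 3 each). The log2 fold changes behind this were -0.62 for Rpl36al and -1.56 for Rpl36a, both called. Rpl22, an RNA-binding protein of the large subunit needed for αβ T cell development in mice, and its paralog Rpl22l1 were lower by similar amounts, with log2 fold changes of -1.32 and -1.37. Rpl22l1 had 42.5 ± 4.33 reads per 100 of Rpl22 in untreated BMDC and 43.5 ± 1.997 in untreated B cells (SD, n = 3 each).

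**Figure D1:**
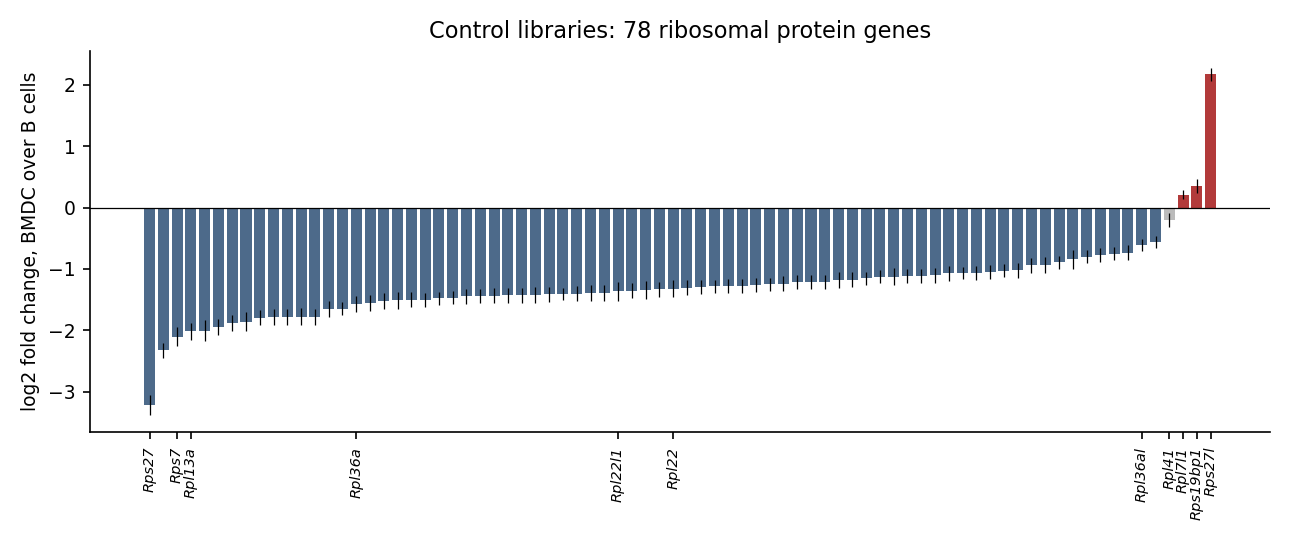
Log2 fold change of 78 ribosomal protein genes in untreated BMDC over untreated B cells, one bar per gene in rising order with standard errors from edgeR, names for the genes described, and colour for the call (blue lower, red higher, grey no call). Rps27 stands at -3.22 and Rps27l at 2.17, at opposite ends.

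Other members far below 0 in untreated BMDC were Rps7 at -2.10 and Rpl13a at -2.02 on the log2 scale, both called. Rps7 is a small subunit protein, and Rpl13a, of the large subunit, is also known as part of a complex that silences translation in interferon-treated human monocytes. Rpl41, which encodes the shortest protein of the family, was the single member without a call, at -0.21 (adjusted p = 0.11 in edgeR). Besides Rps27l, the higher members were Rps19bp1 at 0.35 and Rpl7l1, a paralog of Rpl7, at 0.21. Under upper quartile library factors, which moved the median of all genes to -0.18, a single member was called higher. The mitochondrial ribosomal protein genes (Mrps and Mrpl), which serve the separate ribosomes of mitochondria, had 56 higher and 4 lower of 78, with a median log2 fold change of 0.47.

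Per coding length the order of members also differed between the cell types. In B cell Controls, Rps27 led at 8399 ± 1230 CPM per coding kilobase, followed by Rps14 at 8331 ± 1170, Rps24 at 6893 ± 386 and Rpl41 (SD, n = 3 each). Rps27 and Rps14 lay within their spread of each other. In BMDC Controls Rpl41 led at 5327 CPM per coding kilobase, followed by Rps14 at 1924, and Rps27 stood at 840. The median over members was 939 in BMDC and 2577 in B cells. Coding length is the longest one annotated for each gene, so where a shorter isoform is expressed the value per kilobase is too low. Counts cover whole transcripts, so bases outside the coding sequence raise the value. Rpl41 has 138 coding bases in a 509-base transcript, and Rps14 has 453 in 597. The lead of Rpl41 is therefore by coding length only, and the order by transcript length was not computed. The members with most reads, which were not corrected for length, were Rps3, Rpl4 and Rpl3 in BMDC, and Rps3, Rpl13a and Rps14 in B cells.

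In B cells, ribosomal protein mRNAs were lower with MSA2 throughout the family. The log2 fold change against Control was below 0 for all 81 members, from -0.64 to -0.14, with a median of -0.37 (a fold of 0.773), against -0.01 for all 16180 genes tested. Of the 81, 46 were lower at an adjusted p under 0.05 and none was higher, whereas 43.4% of all genes were called in this comparison, 18.5% lower and 24.9% higher. The large subunit had 31 called lower of 47 and the small subunit 15 of 34, with medians of -0.38 and -0.36. For 59 members the MSA2 libraries lay below every Control library, against 25.1% of all genes.

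The members' share of counts was 8.995%, 7.238% and 9.707% in B cells with MSA2, against 10.96%, 10.80% and 10.50% in Controls. The groups did not overlap, and the MSA2 libraries were spread more widely (8.65 ± 1.27%, against 10.8 ± 0.235%, SD, n = 3 each). The MSA2 libraries stood apart from each other in the whole family, as the plot of members by library shows. Replicate 2 had a median log2 difference of -0.71 from the Control mean, replicate 1 of -0.34 and replicate 3 of -0.12. Mitochondrially encoded genes took 4.62% of counts in replicate 2, 3.98% in replicate 1 and 4.22% in replicate 3, against 2.23% to 3.73% in Controls, and their part in the result was not tested.

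**Figure D2:**
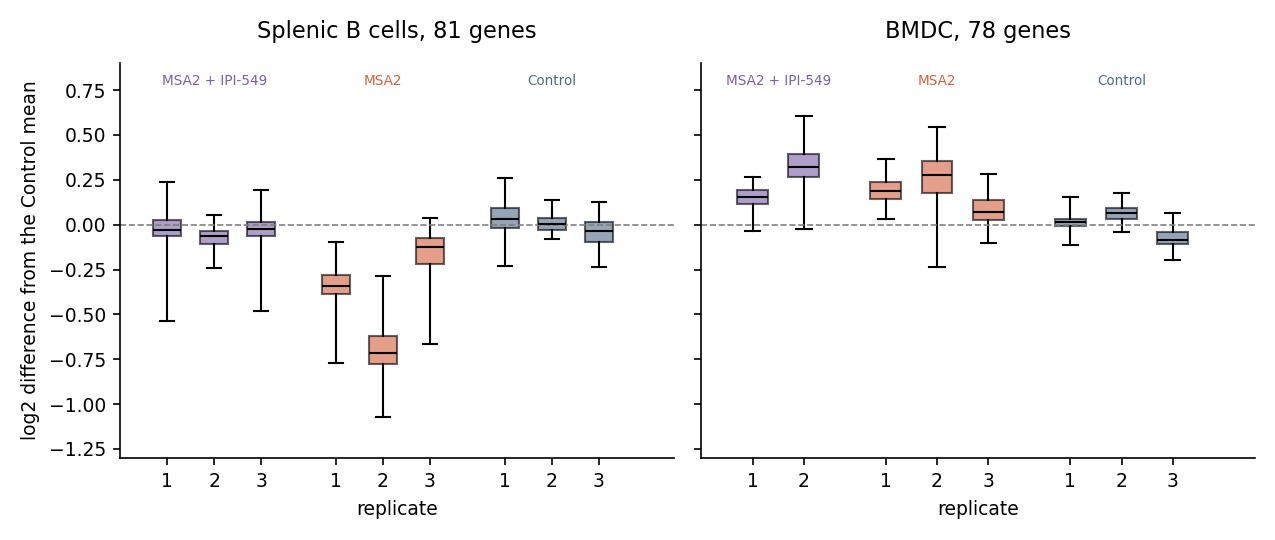
Log2 difference of each member from its Control mean, by library and replicate number, for B cells (81 genes) and BMDC (78 genes); boxes span the quartiles, lines the medians and whiskers the full range. The 3 MSA2 libraries of B cells have medians of -0.34, -0.71 and -0.12, and the BMDC libraries with drug have medians above 0.

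The B cell libraries with MSA2 also carried mRNAs of other cell types. The 12 B cell markers summed to between 4867 and 4911 CPM with MSA2, against 8633 to 9121 CPM in Controls. The 12 T cell markers summed to between 1253 and 1478 CPM with MSA2 and to between 10.9 and 36.2 CPM in Controls. The 12 neutrophil markers summed to between 1660 and 1811 CPM with MSA2 and to between 2.13 and 33.0 CPM in Controls, and the 9 erythroid markers to between 1192 and 1240 CPM with MSA2 and between 27.1 and 49.6 CPM in Controls. All markers of these 3 lists were called higher, as were all 10 of NK cells, 15 of monocytes and macrophages and 8 of mast cells and basophils, and none was at 0 in the MSA2 libraries. The 13 dendritic cell markers were mixed, with 8 higher and 2 lower, beside 24.9% higher and 18.5% lower of all genes. They summed to between 4600 and 5073 CPM with MSA2 and to between 7431 and 7814 CPM in Controls. Fewer B cells in a library and less ribosomal protein mRNA per B cell cannot be told apart in bulk counts, and the part of these markers in the result was not tested.

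Among small subunit genes, Rps27 fell most after its copy Rps27rt. It had 1443, 1030 and 1753 CPM in B cells with MSA2, against 2452, 2058 and 1840 CPM in Controls, at -0.59 ± 0.17 on the log2 scale (SE, edgeR adjusted p = 0.018). Every MSA2 library lay below every Control library, and replicate 3 with MSA2 came close to the lowest Control. Rps27rt had 52.7, 46.6 and 74.6 CPM with MSA2, against 99.4, 92.5 and 79.7 CPM in Controls, at -0.64 ± 0.16 on the log2 scale (SE, edgeR adjusted p = 0.00604). Since its coding sequence is the one printed for Rps27, this row is not an independent measurement: it held 4.15 ± 0.446 reads per 100 of Rps27 with MSA2 and 4.29 ± 0.224 in Controls (SD, n = 3 each). Rps27l had 31.5, 27.7 and 32.9 CPM with MSA2, against 35.1, 34.5 and 31.6 CPM in Controls, and was not called (log2 fold change -0.14 ± 0.11, SE, adjusted p = 0.34). It stood nearest to 0 of all members.

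Rps14, whose loss of 1 copy marks a human myelodysplastic syndrome, had 2731, 1809 and 3088 CPM in B cells with MSA2, against 4201, 3940 and 3181 CPM in Controls. The log2 fold change was -0.57 ± 0.19 (SE, adjusted p = 0.031 in edgeR). Rps3, also known as a partner of NF-κB in human cells, had 2878, 2101 and 3105 CPM with MSA2, against 3887, 3751 and 3484 CPM in Controls, and fell by 0.46 on the log2 scale. Rps19, the gene most often mutated in Diamond-Blackfan anaemia, fell by 0.40, and Rps25, needed in human cells for translation from viral internal entry sites, fell by 0.44. Rps6, the substrate of the S6 kinases, and Rps4x were not called, at -0.24 (adjusted p = 0.15) and -0.32 (adjusted p = 0.099).

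Among genes named for the large subunit, the lowest fold change was that of Rpl7l1, whose place in the ribosome is not shown here. It had 87.7, 77.8 and 79.7 CPM in B cells with MSA2, against 124, 130 and 124 CPM in Controls, at -0.63 ± 0.08 on the log2 scale (SE, edgeR adjusted p = 9.09e-05). Its MSA2 libraries lay within a narrow range well below the Controls, and replicate 2 did not stand apart for this gene. Rpl11 and Rpl5, which together bind and inhibit Mdm2 when ribosome assembly fails, fell by 0.54 and 0.37 on the log2 scale (adjusted p = 0.013 and 0.042). Rpl11 had 1107, 769 and 1239 CPM with MSA2, against 1588, 1535 and 1401 CPM in Controls. Rpl13a had 2697, 1944 and 3000 CPM with MSA2, against 3987, 3627 and 3253 CPM in Controls, and fell by 0.51. Rpl10a and Rpl38, known in mice for favouring particular mRNAs, fell by 0.37 and 0.32, and Rpl34 fell by 0.37.

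Several large subunit genes missed the threshold. Rpl22 and Rpl22l1 stood at -0.43 (adjusted p = 0.052) and -0.39 (adjusted p = 0.087), and Rpl36a and Rpl36al at -0.32 (adjusted p = 0.097) and -0.27 (adjusted p = 0.067) on the log2 scale. Rpl39, a protein of the peptide exit tunnel, Rpl3 and Rpl10 stood at -0.42, -0.28 and -0.24 without a call. The ratio within each of the pairs Rpl22l1 to Rpl22 and Rpl36al to Rpl36a overlapped between MSA2 and Control. Rps27l had 2.25 ± 0.408 reads per 100 of Rps27 with MSA2 and 1.61 ± 0.155 in Controls (SD, n = 3 each), without overlap. The two-sided exact permutation test gave p = 0.1, the smallest these groups allow, and 0.36 after adjustment over 18 such ratios. The part of mRNAs from other cell types in this ratio was not tested.

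The count of called members in B cells rested on single libraries, while the direction did not. Without MSA2 replicate 2, the library farthest from Controls, it was 34 lower and the median log2 fold change was -0.23. Without MSA2 replicate 3 it was 78 lower, without MSA2 replicate 1 it was 27, and without Control replicate 1 or 2 it was 19 or 17, with no member higher in any of these. A fit of MSA2 and Control alone gave 26 lower. Among the 61 members with a listed start, those with a pyrimidine run at the start had 14 lower of 20 and a median log2 fold change of -0.38, and those without had 22 lower of 41 and a median of -0.37. This split depends on the exact base annotated as the start. Rpl13a and Rpl19 had no run there but runs of 13 and 11 bases within the window. The split therefore does not separate mRNAs with a TOP motif from those without. Across 79 members, the log2 fold change had a Pearson correlation of -0.002 with coding length and of -0.06 with the Control level, as a description over genes of the same libraries.

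Related gene lists in B cells with MSA2 are given beside the shares of all genes called in that comparison, 24.9% higher and 18.5% lower. Of the ribosomal protein genes outside the name pattern with Rack1, a scaffold on the small subunit, 3 of 7 were lower (among them Rack1 at -0.67 and Fau at -0.50) and the median was -0.39. Of the other translation genes with TOP mRNAs, 8 of 18 were lower and none was higher, with a median of -0.27. Eef1a1, which delivers tRNAs to the ribosome, fell by 0.42 on the log2 scale, and the initiation factor gene Eif3h fell by 0.52. Pabpc1, the poly(A)-binding protein, stood at 0.02. The mitochondrial ribosomal protein genes had 36 lower and 2 higher of 78, with a median of -0.26. The non-coding snoRNA hosts, whose transcripts also begin with TOP motifs, had 2 higher and none lower of 7, Snhg1 at 0.66 and Snhg8 at 0.38, which is near the share of all genes called higher.

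Lists of genes that act on the translation of these mRNAs or on ribosome production held calls in both directions in B cells with MSA2, beside 24.9% higher and 18.5% lower of all genes. Of the mTORC1 list, 3 were higher and 5 lower of 20. Deptor, an inhibitor of mTOR, rose by 1.85 and Eif4ebp1, which blocks cap binding until mTORC1 phosphorylates it, rose by 0.61 on the log2 scale. Deptor was low, with 0.974 ± 0.154 CPM in Controls and 3.52 ± 0.307 CPM with MSA2 (SD, n = 3 each). Rheb, the activator of mTORC1, fell by 0.50 and Eif4e, the cap-binding protein, fell by 0.33. Sesn1, an inhibitor of mTORC1, was lower as well, with 120 ± 7.41 CPM in Controls and 92.6 ± 11.3 CPM with MSA2 (SD, n = 3 each). The part of mRNAs from other cell types in these values was not tested. Of the kinase genes left out by name, 4 were higher and 2 lower of 9 tested, Rps6ka1 at 0.74 and Rps6kb2 at -0.36. The list for transcription of ribosomal RNA had 3 lower and none higher of 17, with Polr1d at -0.45 and Rrn3 at -0.33. The list for rescue of stalled ribosomes had 3 higher and 2 lower of 18, with Mkrn1 at 0.34 and Rnf25 at -0.37.

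B cells with MSA2 plus IPI-549 had ribosomal protein mRNAs near the Control level. No member was called against Control, and none had an unadjusted p under 0.05 in edgeR, nor did DESeq2 or limma-voom call any. Of all genes, 1.06% were called, 0.686% higher and 0.371% lower. For 9 members every library with the combination lay below every Control library, against 10.9% of all genes. The median log2 fold change of the members was -0.03, against -0.02 for all genes, and the range was -0.33 to 0.09. The share of counts was 10.34%, 10.15% and 10.13% with the combination, against 10.96%, 10.80% and 10.50% in Controls, so every library with the combination lay below every Control. The lowest member was Rps14, with 2586, 3227 and 3190 CPM with the combination, against 4201, 3940 and 3181 CPM in Controls (log2 fold change -0.33 ± 0.19, SE, adjusted p = 0.63). Its groups overlapped.

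**Figure D3:**
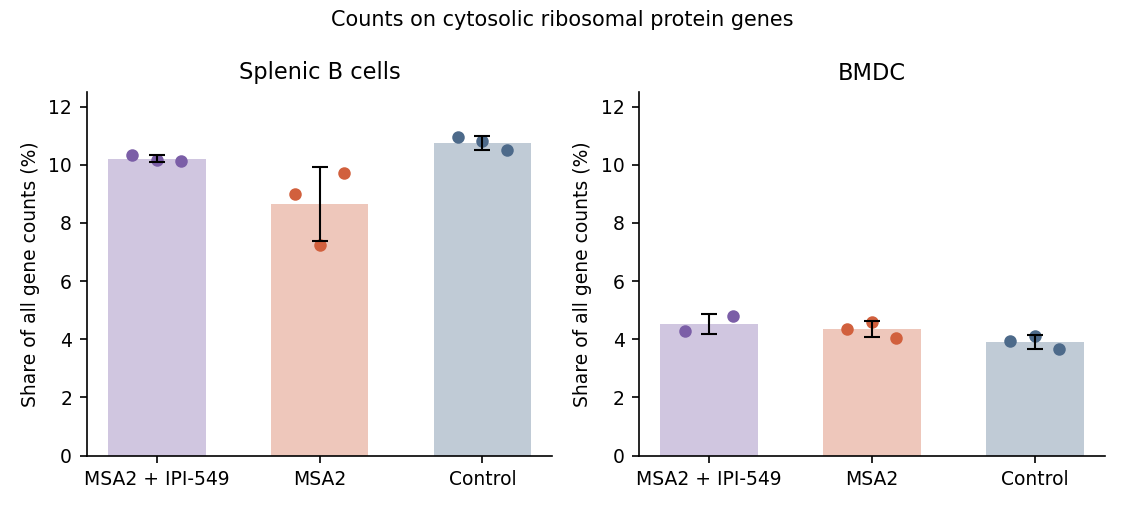
Share of all gene counts on cytosolic ribosomal protein genes by group, with points for libraries, bars for means and error bars of 1 SD, for B cells (left) and BMDC (right). B cells with MSA2 lie between 7.24% and 9.71%, below all Controls, and BMDC shares lie between 3.65% and 4.79%.

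Against MSA2 alone, B cells with the combination had 24 of 81 members higher and none lower. Of all genes, 37% were called in this comparison, 14.1% higher and 22.9% lower. With the replicate number as a block in the fit of all B cell groups, 49 members were higher. The labels do not state this pairing. It was taken from the same counts that were then tested, so the larger count is not separate support. The median log2 fold change was 0.34, and for 64 members every library with the combination lay above every MSA2 library, against 19.9% of all genes. This comparison uses the same MSA2 libraries as the one with Control, so the sets of values are not independent. The largest called values were those of Rps27rt at 0.54, Rpl7l1 at 0.49, Rps20 at 0.48 and Rpl13 at 0.48. Rpl7l1 had 116, 125 and 104 CPM with the combination, against 87.7, 77.8 and 79.7 CPM with MSA2 (adjusted p = 0.000615 in edgeR). Rps27 had 2006, 1866 and 1917 CPM with the combination, against 1443, 1030 and 1753 CPM with MSA2, and was not called (0.45 ± 0.17, SE, adjusted p = 0.062). With the replicate block it was called (0.47 ± 0.16, SE, edgeR adjusted p = 0.0409), and its adjusted p ran from 0.0087 to 0.15 over all alternatives. Rps27l stood at -0.09 (adjusted p = 0.56).

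The other cell type markers moved with this comparison too. The 12 T cell markers summed to at most 8.004 CPM with the combination and to at least 1253 CPM with MSA2, and the 12 neutrophil markers to at most 0.953 CPM with the combination, where up to 7 of them were at 0, and to at least 1660 CPM with MSA2. The 12 B cell markers summed to between 8607 and 9008 CPM with the combination and between 4867 and 4911 CPM with MSA2. The part of these markers in the comparison was not tested. Rpl36al had 37.6 ± 1.94 reads per 100 of Rpl36a with the combination, 43.1 ± 3.44 with MSA2 and 41.1 ± 1.28 in Controls (SD, n = 3 each), and the combination overlapped neither (two-sided exact permutation p = 0.1 each, 0.36 adjusted). The count of called members was 74 without MSA2 replicate 3 and 11 without MSA2 replicate 1. It was 6, 15 and 14 without combination replicates 1, 2 and 3.

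In BMDC, ribosomal protein mRNAs were slightly higher with MSA2. The log2 fold change against Control was above 0 for all 78 members, from 0.03 to 0.36, with a median of 0.17 (a fold of 1.13), against -0.01 for all 14614 genes. Of the 78, 11 were higher (14.1%) and none was lower, and of all genes 28.2% were called, 14.6% higher and 13.5% lower, so the share of members called was near the background. For 37 members every MSA2 library lay above every Control library, against 20.3% of all genes. The share of counts was 4.35%, 4.61% and 4.06% with MSA2, against 3.96%, 4.13% and 3.65% in Controls, and these groups overlapped.

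Rps27 had the largest value in BMDC. It had 272, 285 and 255 CPM in BMDC with MSA2, against 211, 225 and 199 CPM in Controls, without overlap, at 0.36 ± 0.09 on the log2 scale (SE, edgeR adjusted p = 0.014). Rpl17 and Rpl9 of the large subunit rose by 0.33 and 0.31 on the log2 scale, and Rps24, another gene mutated in Diamond-Blackfan anaemia, rose by 0.28. Rps19 rose by 0.26. Rps27l had 148.5, 162.5 and 144.8 CPM with MSA2, against 130.7, 157.6 and 135.8 CPM in Controls, and was not called (0.10 ± 0.08, SE, adjusted p = 0.41). Rpl7l1 was not called either (0.05, adjusted p = 0.60).

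Rps27l had 56.1 ± 1.40 reads per 100 of Rps27 in BMDC with MSA2 and 66.8 ± 4.36 in Controls (SD, n = 3 each). With the combination the ratios were 52.7 and 59.3, and the Control libraries ran from 61.9 to 70.1. The ratio of the drug-treated groups therefore did not overlap that of Controls, and the two-sided exact permutation tests gave p = 0.1 for MSA2 and 0.2 for the combination (0.36 and 0.6 after adjustment over the 18 ratios). In B cells the ratio was higher with MSA2 than in Controls, and in BMDC it was lower. The monocyte and macrophage markers summed to 1992 to 2434 CPM in B cells with MSA2, against 143 to 182 CPM in B cell Controls. The part of mRNAs from other cell types in the B cell ratio was not tested. Rps27 was called with MSA2 in both cell types and Rps27l in neither.

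**Figure D4:**
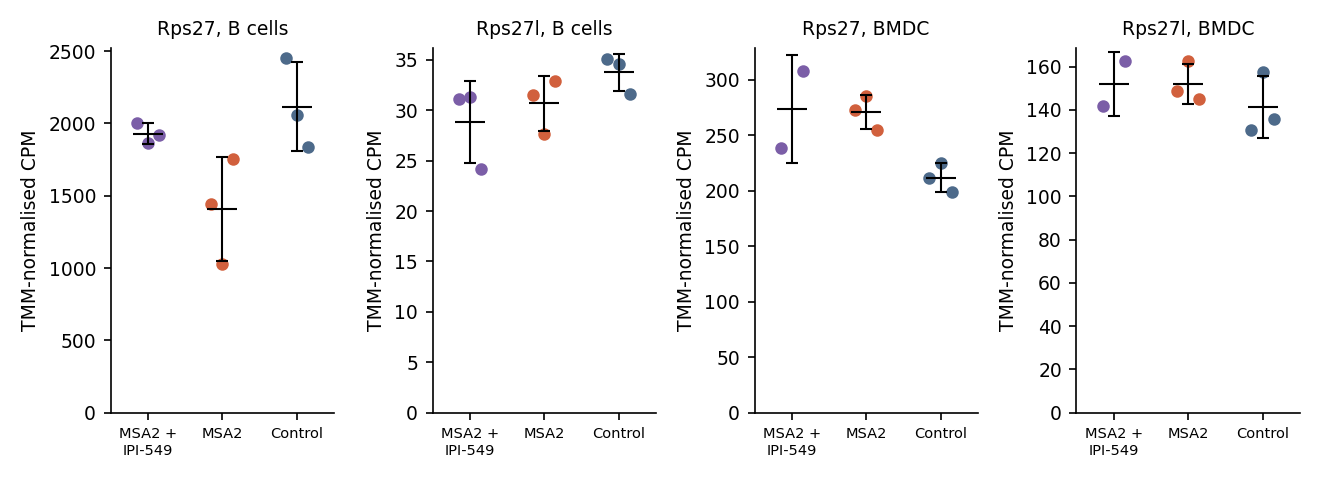
TMM-normalised CPM of Rps27 and its paralog Rps27l by group in B cells (left pair) and BMDC (right pair), with a point per library, a bar at the mean and error bars of 1 SD; each panel has its own axis from 0. Rps27 lies lower with MSA2 than in Controls in B cells and higher in BMDC, and Rps27l lies between 24.2 and 35.1 CPM in B cells and between 130.7 and 162.5 CPM in BMDC.

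BMDC with MSA2 plus IPI-549 had 9 of 78 members higher than Control and none lower, and 12.9% of all genes were called, 7.51% higher and 5.38% lower. The log2 fold change was above 0 for 77 members, with a median of 0.24, against 0.01 for all genes. For 66 members both libraries with the combination lay above every Control library, against 23.3% of all genes. Rpl36 had the largest value, with 153 and 206 CPM with the combination, against 131, 147 and 128 CPM in Controls (log2 fold change 0.40 ± 0.12, SE, adjusted p = 0.049 in edgeR). Among called members, Rps27 at 0.37, Rpl34 at 0.36 and Rps15 at 0.34 followed, and Rps19 rose by 0.34. The 2 libraries differed from each other, with family medians of 0.16 and 0.32 above the Control mean. Without combination replicate 2 no member was called, without either Control replicate 1 or 3 none was called, and without Control replicate 2 the count was 6.

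Adding IPI-549 to MSA2 gave no called member in BMDC. No gene of the whole table was called in this comparison (0%) by edgeR, 1594 genes had an unadjusted p under 0.05, and none of the 78 members was among them. DESeq2 called 156 genes and limma-voom 3, with no member among either. The median log2 fold change of the members was 0.06, and the largest was that of Rpl36 at 0.24 ± 0.12 (SE, adjusted p = 0.50).

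The counts of called members in BMDC with MSA2 also rested on single libraries. Without Control replicate 3 no member was called, without Control replicate 1 or MSA2 replicate 2 a single member was called, and without MSA2 replicate 3 the count was 18. Upper quartile factors or none left 1 called member, and DESeq2 called 30, all higher. For the related lists in BMDC with MSA2, the shares of all genes called were 14.6% higher and 13.5% lower. There, 2 of the 7 genes outside the name pattern were higher (Rpsa at 0.25, Rack1 at 0.25). Of the other translation genes with TOP mRNAs, 6 of 18 were higher and none was lower, with a median of 0.19, including Naca at 0.29 and Pabpc1 at 0.21. The mitochondrial ribosomal protein genes had 4 higher and 1 lower of 78 and a median of 0.03. Of the mTORC1 list, 3 were higher, near the share of all genes, and 8 lower of 20. Larp1, which binds TOP mRNAs, rose by 0.95, and Ddit4 and Sesn1, stress-induced inhibitors of mTORC1, fell by 2.12 and 1.08 on the log2 scale. Ddit4 was low, with 7.53 CPM in Controls and 1.70 CPM with MSA2 (means, n = 3 each). Mlst8, a part of mTORC1 itself, was lower too, with 22.5 CPM in Controls and 16.9 CPM with MSA2 (means, n = 3 each).

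The response to MSA2 differed between BMDC and B cell libraries for most of the family. In B cell libraries the B cell markers summed to 4867 to 4911 CPM with MSA2, against 8633 to 9121 CPM in Controls. The T cell markers there summed to 1253 to 1478 CPM with MSA2, against 10.9 to 36.2 CPM in Controls. The part of mRNAs from other cell types in the difference of responses was not tested. In 1 fit of all 6 groups, the MSA2 response in BMDC minus that in B cells was above 0 for all 78 members, with a median log2 difference of 0.55, against -0.04 for all 17740 genes. Of the 78, 69 were called higher and none lower, and of all genes 37% were called, 16.3% higher and 20.7% lower. The largest differences were those of Rps27 at 0.95 ± 0.21 (SE, adjusted p = 0.00183 in edgeR), Rps14 at 0.85 ± 0.24, Rps7 at 0.84 ± 0.22, Rpl9 at 0.83 ± 0.19 and Rpl17 at 0.80 ± 0.21. Rps24 differed by 0.75 and Rpl7l1 by 0.69. Rps27l was among the 9 without a call (0.25, adjusted p = 0.19). Leaving out any 1 library gave between 51 and 77 calls, all higher, and 51 to 69 of the 69 were among them.

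**Figure D5:**
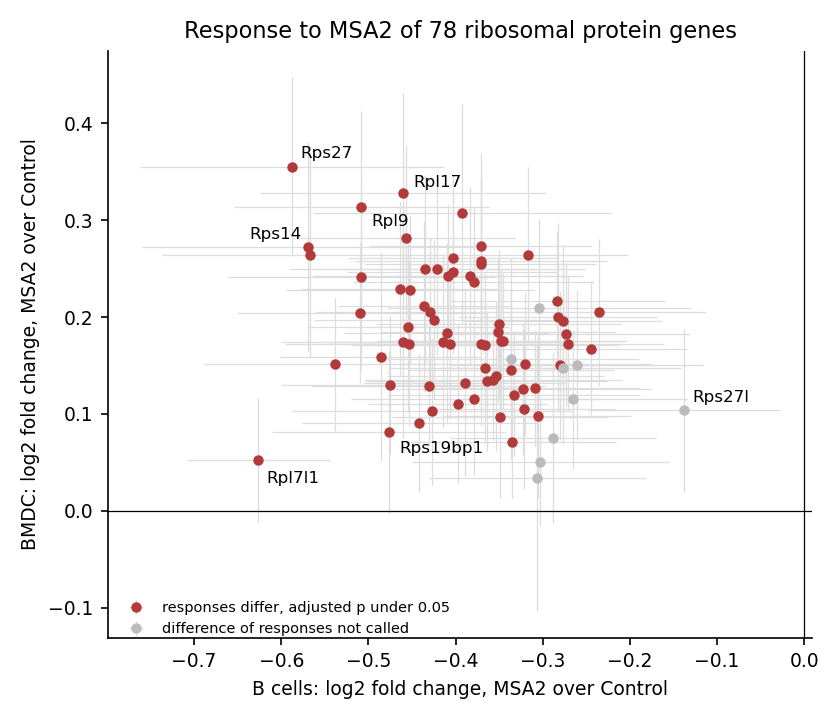
Log2 fold change of MSA2 over Control for 78 members in B cells (x axis) and in BMDC (y axis), with standard errors from edgeR; red points are the 69 members whose responses differed between the cell types at an adjusted p under 0.05, grey points the 9 others. All points lie left of 0 in B cells and above 0 in BMDC, with Rps27 at the upper left. The B cell libraries with MSA2 also carried mRNAs of other cell types.

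The sizes of the responses were weakly and inversely related between the cell types. Across the 78 members, the MSA2 responses had a Pearson correlation of -0.34 and a Spearman correlation of -0.34, and of -0.47 and -0.43 without Rpl7l1 and Rps19bp1. These are descriptions over genes, which are not independent replicates, and the responses share no library. For the combination the same correlations were -0.07 and -0.12. The response to the combination in BMDC minus that in B cells had a median of 0.23, and no member was called (6 had an unadjusted p under 0.05, DESeq2 and limma-voom called none, and 3.04% of all genes were called, 2.14% higher and 0.902% lower).

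Some paralogs named for other tissues were barely detected. Rpl10l, a testis copy of Rpl10, had 0 counts in every library, which allows up to 0.0863 CPM in the shallowest of them (3 counts, counting error only). Rpl39l, also known from testis, had 4 to 54 counts per library, and Rpl3l, known from muscle, had 0 to 18 counts in B cells and 52 to 120 in BMDC. The pseudogene rows held 0.227 ± 0.0390% of counts in B cells with MSA2 and 0.268 ± 0.00410% in B cell Controls (SD, n = 3 each). Rps2-ps13 held 67.7 ± 2.79 reads per 100 of Rps2 in B cell Controls, and Rps6-ps4 held 16.3 ± 1.01 per 100 of Rps6, so the values of Rps2 and Rps6 are uncertain by reads that these rows share. Adding pseudogene counts to the parent genes left 46 members lower with MSA2 in B cells.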

How the data were processed

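RNA-seq of 17 mouse libraries was deposited as 2 tables of expected counts per gene, which the authors estimated with RSEM 1.3.3. Per the submitters' processing notes, reads were trimmed with cutadapt 4.8 and aligned with STAR 2.7.8a on GRCm38 (mm10), with quality reports from FastQC 0.11.8 and MultiQC 1.20. The annotation release and the strand of the libraries are not given in the sources used here. RSEM divides reads between genes that share sequence, so copies and pseudogenes are uncertain. The titles define the groups, because every library has Control as its treatment label.

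The deposited values were whole and were rounded for safety. One model per cell type held its 3 groups, and a model of all 6 groups compared the cell types, with edgeR 4.0.16 (R 4.3.3), TMM factors, its default low-count filter and the quasi-likelihood test. A call is a Benjamini-Hochberg adjusted p under 0.05 over all tested genes. The standard error is the log2 fold change divided by the square root of F. All 81 members in B cells and all 78 in BMDC passed this filter. CPM are scaled by TMM factors. Positions and coding lengths come from GENCODE M21, start windows from RefSeq (GRCm38.p6). The fit was also run on counts simulated independently for each gene, which do not mimic a family that shifts together by library. Alternatives covered library factors, filters, DESeq2 1.42.0, limma 3.58.1 with voom, the groups in the fit, replicate number as a block, and omission of single libraries.

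The members and lists were chosen with earlier results of these data known. Named genes were the 4 largest called members per direction in each treatment comparison, a set of paralogs and of members with further known roles, and the 3 most abundant members per table. The genes named between untreated cell types, between the responses and within lists, and Rpl36 against MSA2, were chosen after their values were seen. The members' share of counts is given without the planned permutation test, because the members were chosen with results known. In the B cell table the library numbers in the header are higher for all MSA2 libraries than for the other groups, and what the numbers stand for is not given in the sources used here. No pair of libraries was a duplicate. Same-numbered B cell libraries with the combination and with MSA2 deviated together from their group means (correlations over genes of 0.117, 0.152 and 0.262), so the number was taken to pair these groups, from the data and not from the labels.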

Additional observations from a re-analysis of the deposited data

Results flagged for a closer look

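The response to MSA2 differed between BMDC and B cells, tested as the difference of the 2 responses in 1 edgeR fit of all 6 groups. It was called for 69 of 78 members, all with a higher response in BMDC. Among the genes named, the log2 difference was 0.95 for Rps27, 0.85 for Rps14, 0.84 for Rps7, 0.83 for Rpl9, 0.80 for Rpl17, 0.75 for Rps24 and 0.69 for Rpl7l1. For Rpl7l1 the response was 0.05 in BMDC and -0.63 in B cells. Non-B lineage markers and the share of mitochondrially encoded genes moved with MSA2 in B cells, and their part in these differences was not tested. The cell types come from separate tables, and each response is taken within its own. Groups of 2 or 3 libraries were not tested for single outlying samples.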

How the results depend on the processing

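No alternative called a member higher in B cells with MSA2, or lower in BMDC with MSA2 or the combination, where some alternatives called none. The counts moved. For MSA2 against Control in B cells, a fit of these groups alone gave 26. For the combination against MSA2 in B cells, the count was 42 with upper quartile factors, 15 without factors (which moved the median of all genes to -0.11), 63 without a filter, 58 with DESeq2, 41 with limma-voom and 9 for these groups alone. For MSA2 against Control in BMDC it was 1 with upper quartile factors, 1 without factors, 31 without a filter and 30 with DESeq2. For the combination against Control in BMDC it was 0 with upper quartile factors, 1 without factors, 37 without a filter, 29 with DESeq2 and 25 for these groups alone. Without factors the difference of the MSA2 responses had 56 called members and the median of all genes was -0.18. The difference between the responses to the combination had 1 called member without a filter. Leaving out each library in turn gave 17 to 78 for MSA2 in B cells, 6 to 74 for the combination against MSA2 in B cells, 0 to 18 for MSA2 in BMDC, 0 to 11 for the combination in BMDC and 51 to 77 for the difference of the MSA2 responses. It gave 77 in every case between untreated cells, and 0 in every case for the combination against Control in B cells, against MSA2 in BMDC and for the difference of the combination responses.

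Replicate numbers paired the B cell libraries with the combination and with MSA2, and no other groups by the rule that every pair correlates over 0.1: 1 of 7 same-numbered pairs in BMDC and 3 of 9 in B cells did. As a hint from the data, 2 of 8 libraries in BMDC and 8 of 9 in B cells correlated best with their own number. The block was fitted to all groups of a cell type, also to those not paired by this rule. With a replicate block the counts were 62 for MSA2 in B cells, 49 for the combination against MSA2 in B cells, 29 for MSA2 in BMDC and 6 for the combination in BMDC. Between the paired groups the block changed the call of Rps27 and of no other gene named there.

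The difference in share between the combination and MSA2 in BMDC was 0.201 percentage points and ran from -0.0435 to 0.445 when a library was left out, with the lowest value without combination replicate 2. The other share differences kept their sign, at -2.63 to -1.40 for MSA2 against Control in B cells, -0.674 to -0.443 for the combination against Control, 0.855 to 2.09 for the combination against MSA2, and in BMDC 0.294 to 0.567 for MSA2 and 0.384 to 0.872 for the combination. Signs turned for Rpl7l1 in BMDC with MSA2 under upper quartile factors (-0.0188, against 0.05) and for Rps27l in B cells with the combination against MSA2, which ran from -0.146 to 0.0267 when a library was left out, highest without combination replicate 3 (-0.09 with all); neither was called. Dropping Rps19bp1, Rpl7l1 and the pseudogene-type rows, or adding pseudogene counts to parents, both chosen after seeing the data, left 44 and 46 lower in B cells with MSA2. The cause of these shifts was not tested.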
